A study of Columba livia with 12 samples.

Results

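In the pectoral muscle of 12 racing pigeons, 60 locus tags were taken for a level that differed widely among 7 trained, raced birds and little among the middle of 5 untrained birds. The members were chosen by the measured counts of both groups. Counts were scaled to CPM, the count of a tag per 1e+06 counts of its library, and put on the scale log2(CPM + 1). A tag was eligible with a mean of 5 to 100 CPM over the 12 libraries, a median of at least 1 CPM in untrained birds and group medians less than 1 apart on the log2 scale, which 5832 of the 15392 tags in the files met. The 60 members had the largest median absolute deviation (MAD, the median distance of the birds from their group's median) in trained birds after subtraction of that in untrained birds. The spread and the levels of the members were used by this choice and are therefore descriptions, with no test.

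The trained group held 7 birds with earlier flight training that were sampled after competing over 300 km. On the eve of the race they were put in baskets and driven to the release point. The untrained group held 5 adult birds without any race training, and all 12 were bred and kept in 1 private loft on the same feed. Training, race, basketing and transport came together in the trained birds and cannot be told apart. Each library came from 1 bird, and birds carry the number of their library.

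The pectoralis is the largest flight muscle of a bird and drives the downstroke of the wing. In pigeons it is built mostly of fast oxidative fibres, rich in mitochondria and fat droplets, with a smaller share of fast glycolytic fibres. Sustained flight is fuelled chiefly by fatty acids, and endurance exercise changes the expression of metabolic, stress and contractile genes over hours to days. A whole-muscle library also holds RNA of blood, vessel, nerve, connective tissue and immune cells, and a change in the number of such cells cannot be told apart from a change in RNA per cell. None of the 60 tags matched the gene table of another assembly of the species used here, so the members carry no gene names and no roles, and markers of muscle or of other cell types could not be checked.

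Assigned counts ranged from 13611534 to 26876040 in trained and from 17297318 to 29169918 in untrained libraries. Trained bird 13 stood apart, with the lowest depth, 11655 detected tags where other trained libraries had 12546 to 13206, and a library scaling factor (trimmed mean of M values, TMM) of 0.752 where the other libraries had 0.980 to 1.07. Untrained bird 5 lay outside the other untrained birds by more than 1 log2 unit in 112 of the other eligible tags, more than any other untrained bird did. The main counts that rest on either bird are also given without it, with the 60 members kept.

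By construction, the median MAD of the 60 members was 0.92 log2 units in trained and 0.17 in untrained birds, where the 5772 other eligible tags had 0.22 and 0.16. The MAD of the members thus stood apart in the trained and not in the untrained birds. Without trained bird 13 the median trained MAD was 0.75 in members and 0.18 in the other eligible tags, and without untrained bird 5 the median untrained MAD was 0.18 in members and 0.13 in the other tags. The last members inside the limit, A306_00014582 and A306_00002783, had a trained MAD above the untrained one by 0.62 and 0.61. The first tags outside it, A306_00011095 and A306_00012939, had a difference of 0.61 and 0.60, so the limit cuts a continuous series of values.

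**Figure D1:**
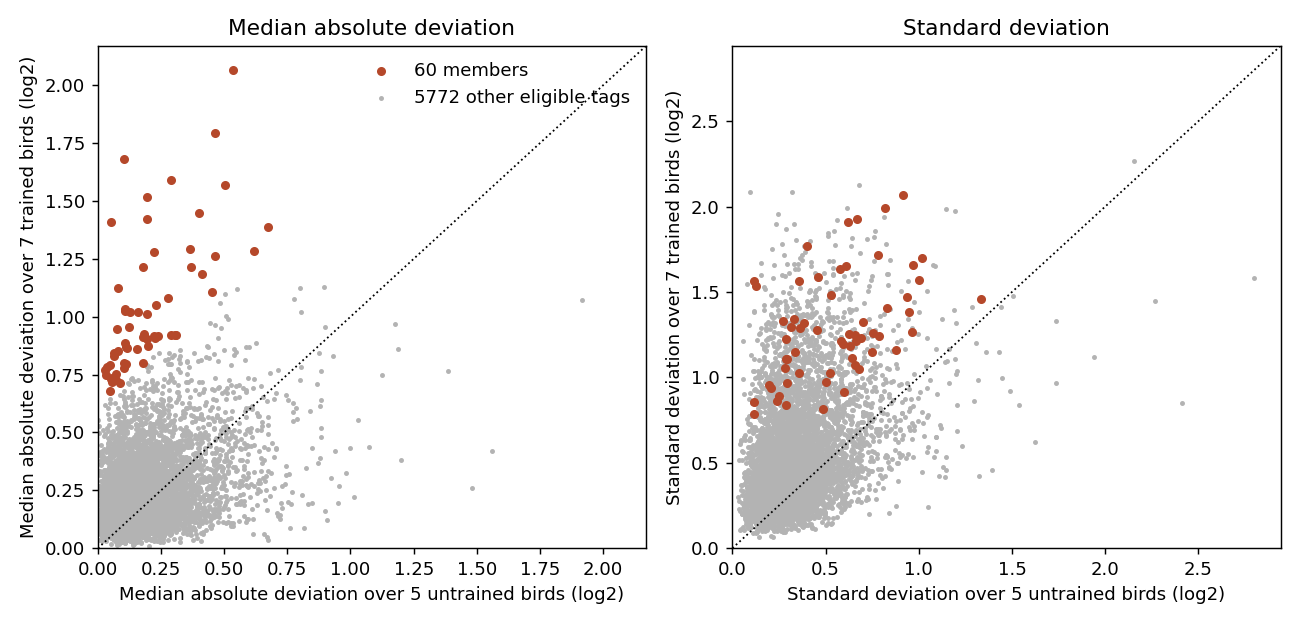
Spread of each eligible tag over the 7 trained birds (vertical axis) against that over the 5 untrained birds (horizontal axis), both in log2(CPM + 1) units; the left panel shows the median absolute deviation and the right panel the standard deviation. Red points are the 60 members, grey points the 5772 other eligible tags, and the dotted line marks equal spread. The members lie at the upper edge in the left panel, while in the right panel they lie inside the cloud, with a median standard deviation of 1.25 in trained and 0.58 in untrained birds.

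The word uniform did not hold for the untrained birds once every bird was counted. The MAD of 5 birds takes no notice of 2 that lie far out. Over all 5 untrained birds, the members had a median SD of 0.58 log2 units, against 0.31 in the other eligible tags, and 45 of the 60 lay above that 0.31. The untrained range exceeded 1 log2 unit in 39 members (65%), against 29.9% of the other eligible tags, and stayed under 0.5 in 5 members (8.33%), against 22% of them. Without untrained bird 5 the median untrained SD was 0.47 in members and 0.25 in the other eligible tags, the range exceeded 1 in 32 members (53.3%, against 15.4%), and it stayed under 0.5 in 10 members (16.7%, against 43.8%). Members were also less abundant, with 24 of 60 (40%) under a mean of 10 CPM against 19.3% of the other eligible tags. The choice favoured a larger trained than untrained SD, which all 60 members had. The median trained SD was 1.25 log2 units, against 0.46 in the other eligible tags (1.07 and 0.34 without trained bird 13). The ratio of trained to untrained SD had a median of 2.57 in members and 1.54 in the other eligible tags, and ranged from 1.10 to 13.6 in members. It was under 2 in 25 of the 60 members and in 3803 of the 5772 other eligible tags. The 60 tags are therefore called uneven among trained birds here, without the claim that untrained birds were alike.

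The 5 members with an untrained range under 0.5 log2 units came nearest to a uniform untrained group. They were picked out after their values were seen. A306_00011739 was at 44.3, 96.7, 60.7, 78.4, 26.7, 46.7 and 20.4 CPM in trained birds 6, 7, 8, 9, 10, 11 and 13, against 38.2, 43.9, 36.2, 42.8 and 42.3 CPM in untrained birds 2, 3, 4, 5 and 12. All values below follow the same order of birds. The untrained birds of this tag lay within 1.21-fold of one another, and the trained birds, from 10 and 13 at the low end to 9 and 7 at the high end, within 4.73-fold. A306_00002993 stood at 27.3, 96, 42.3, 60.1, 17.1, 31.5 and 2.35 CPM in trained and at 39.9, 35.6, 44.5, 39.8 and 38 CPM in untrained birds. Its low end was again trained birds 13 and 10, and its high end trained birds 7 and 9. A306_00011786 was at 28, 71, 46.8, 152, 22.4, 74.6 and 4.63 CPM in trained and at 43.5, 48.7, 38.6, 40.3 and 41.8 CPM in untrained birds. The other 2 were A306_00007124 and A306_00012943. In all 5 of these tags trained birds 7 and 9 lay above every untrained bird and trained birds 10 and 13 below every one. The members were chosen for trained spread and these 5 for a narrow untrained range. Trained birds outside that range were therefore favoured by the picking, and nothing is read from their number. The same was not counted in other eligible tags with so narrow an untrained range.

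In the members ranked highest, trained birds fell on both sides of the untrained birds. A306_00004705, the first of the 60, was at 24.5, 149.6, 38.7, 213, 7.38, 126 and 16.2 CPM in trained and at 51.6, 41.7, 38.8, 40.8 and 76.8 CPM in untrained birds. Trained birds 7, 9 and 11 lay above all untrained birds and trained birds 6, 8, 10 and 13 below all of them, bird 8 only just, with a gap of 1.68 log2 units between the 2 sets, and no trained bird lay inside the untrained range. The group medians were nonetheless close, at 38.7 CPM in trained and 41.7 CPM in untrained birds. A306_00006426, the second, had 13.2, 0.186, 4.9, 23.7, 0.335, 0.0516 and 11.5 CPM in trained birds, against 2.2, 3.63, 1.77, 0.887 and 5.22 CPM in untrained birds. Here trained birds 6, 9 and 13 were high, and 7, 10 and 11 nearly without reads, at 5, 6 and 1 counts. Trained bird 9, at 602 counts, exceeded trained bird 11 by 460-fold, with a counting interval of 82.2 to 18188.9 (exact, 95%). The tag and both birds were extremes taken from these same values. The interval therefore describes counting error only, and its 95% does not hold as coverage.

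A306_00008935 was at 30.6, 7.85, 25.7, 8.19, 2.46, 18.4 and 0.588 CPM in trained and at 15.6, 15, 24.4, 16.1 and 9.33 CPM in untrained birds. Trained birds 10 and 13 were lowest, and birds 7 and 9, the highest in most members, were below the untrained birds. A306_00008414 was at 1.71, 3.57, 19.9, 83.5, 14.9, 18.5 and 0.588 CPM in trained birds, against 4.28, 22.9, 12.6, 9.95 and 6.94 CPM in untrained birds. Trained bird 9 alone lay above all untrained birds in this tag, and birds 6, 7 and 13 below them. A306_00014683 had 7.47, 4.17, 1.96, 23.4, 10.1, 24.7 and 1.69 CPM in trained and 2.54, 3.36, 3.49, 4.14 and 4.89 CPM in untrained birds, with trained birds 9 and 11 high.

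A306_00010539 ran the other way, at 13.4, 0.819, 0.653, 5.91, 26.8, 6.76 and 22.3 CPM in trained birds, against 1.56, 3.22, 3.05, 6.7 and 4.17 CPM in untrained birds. Trained birds 10 and 13, low in most members, were the highest here. A306_00014641 was at 35.1, 2.05, 1.37, 24.7, 5.48, 10.2 and 8.6 CPM in trained and at 8.44, 33.9, 9.81, 1.58 and 8.11 CPM in untrained birds. It shows how the MAD works: untrained birds 2, 4 and 12 were alike, but untrained bird 3 lay near the highest trained bird and untrained bird 5 near the lowest, a 21.5-fold untrained range against 25.6-fold in trained birds. A306_00002778, the eighth, was at 15, 72.3, 20.6, 46.5, 3.91, 11 and 1.98 CPM in trained and at 28.4, 13.9, 23.5, 16.3 and 9.05 CPM in untrained birds, with trained birds 7 and 9 high and 13 and 10 low.

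**Figure D2:**
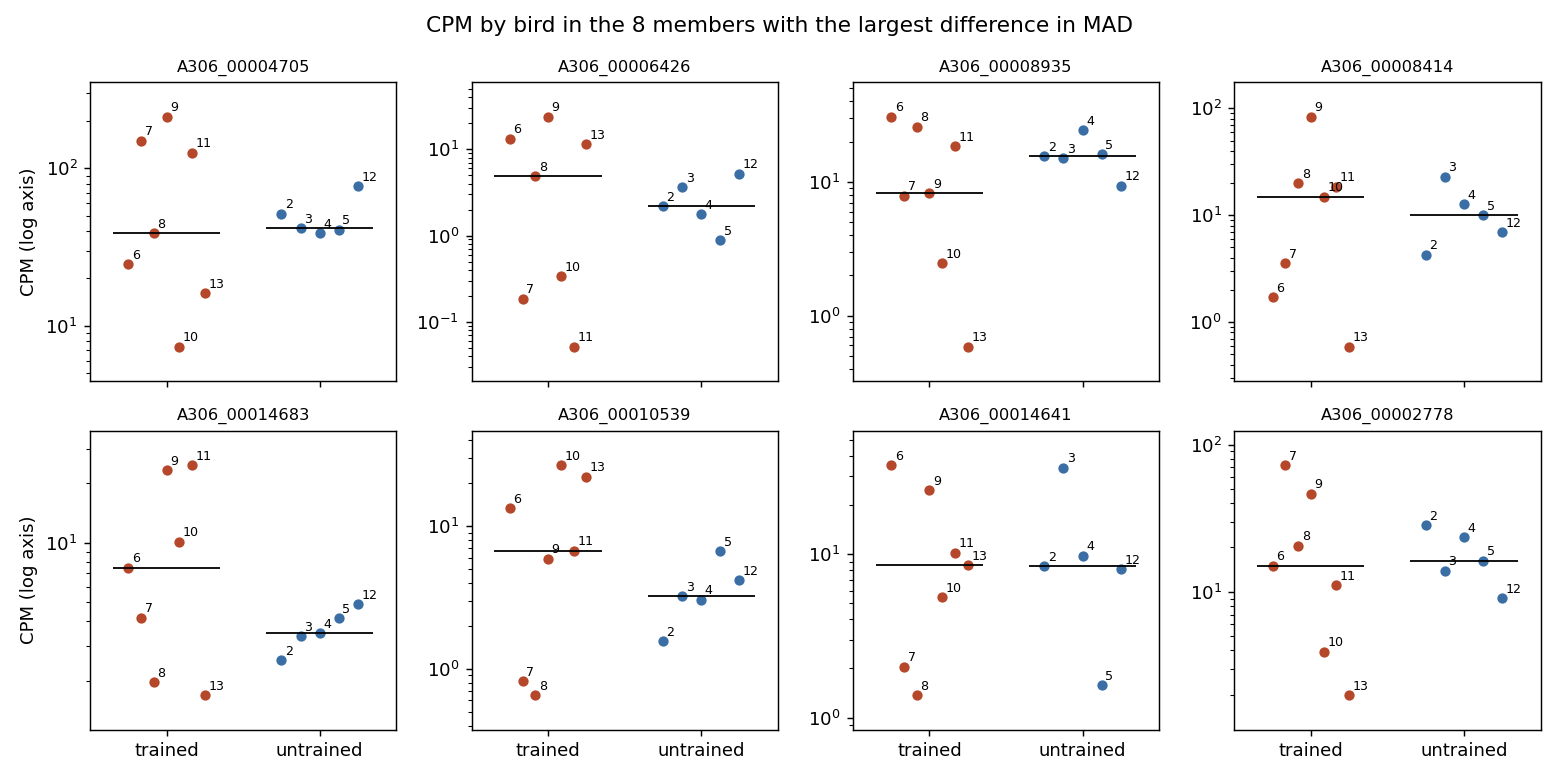
CPM (log axis) of each bird in the 8 members with the largest trained minus untrained MAD, trained birds in red on the left and untrained birds in blue on the right of each panel. Numbers are library numbers and lines are group medians. In A306_00004705 all 7 trained birds lie outside the untrained range, and in A306_00014641 untrained birds 3 and 5 are nearly as far apart as the trained birds.

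Trained bird 9 was the highest trained bird in 19 members (31.7%), against 11.6% of the other eligible tags, and trained bird 7 in 17 (28.3%), against 18.2%. Bird 10 was highest in 10 members (16.7%), against 23.9% of the other eligible tags, followed by bird 11 in 7, bird 6 in 6 and bird 8 in 1. The lowest was trained bird 13 in 36 members (60%), where it was also lowest in 50.7% of the other eligible tags, and bird 10 in 12 members (20%), against 3.29%. Without bird 13, bird 10 was the lowest in 34 members (56.7%), against 24.2% of the other eligible tags. Bird 9 or 7 was highest while bird 13 or 10 was lowest in 33 members (55%), against 23% of the other eligible tags. Without bird 13, bird 9 or 7 was highest while bird 10 was lowest in 27 members (45%), against 13%. In 34 members (56.7%) birds 9 and 7 both exceeded bird 10 by more than 1 log2 unit, against 6.96% of the other eligible tags. In 8 members (13.3%) both lay below bird 10 by that much, against 3.36%. The members had been chosen for spread, so larger distances between birds followed from the choice. Its wording names no bird. Without bird 13, however, the other eligible tags also set birds 7 and 9 against bird 10 (first component, below). A choice by spread can favour tags that follow such an axis, so which birds were extreme was not independent of the choice.

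Relative to the untrained median of each tag, the median member was at 1.26 log2 units in trained bird 9, 0.56 in bird 7, 0.43 in bird 11, 0.14 in bird 6, 0.02 in bird 8, -0.74 in bird 10 and -1.32 in bird 13. The other eligible tags were between 0.01 and 0.09 in trained birds other than 13, and at -0.41 in bird 13. With TMM scaling, which brought the other tags of bird 13 to -0.00, its median member was at -0.98, bird 10 at -0.79 and bird 9 at 1.24. The low level of the members in bird 13 was therefore in part shared by the other tags. In birds 9 and 10 the median of the other tags lay near the untrained median, but single tags did not all stay near it. In bird 10, 31.6% of the other eligible tags lay above the untrained range and 21.9% below it. In bird 9 these shares were 21.7% and 20.5%. Trained birds 7 and 9 were also the deepest trained libraries, with 26876040 and 25390562 counts, and bird 13 the shallowest. The part of depth in these levels was not tested.

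**Figure D3:**
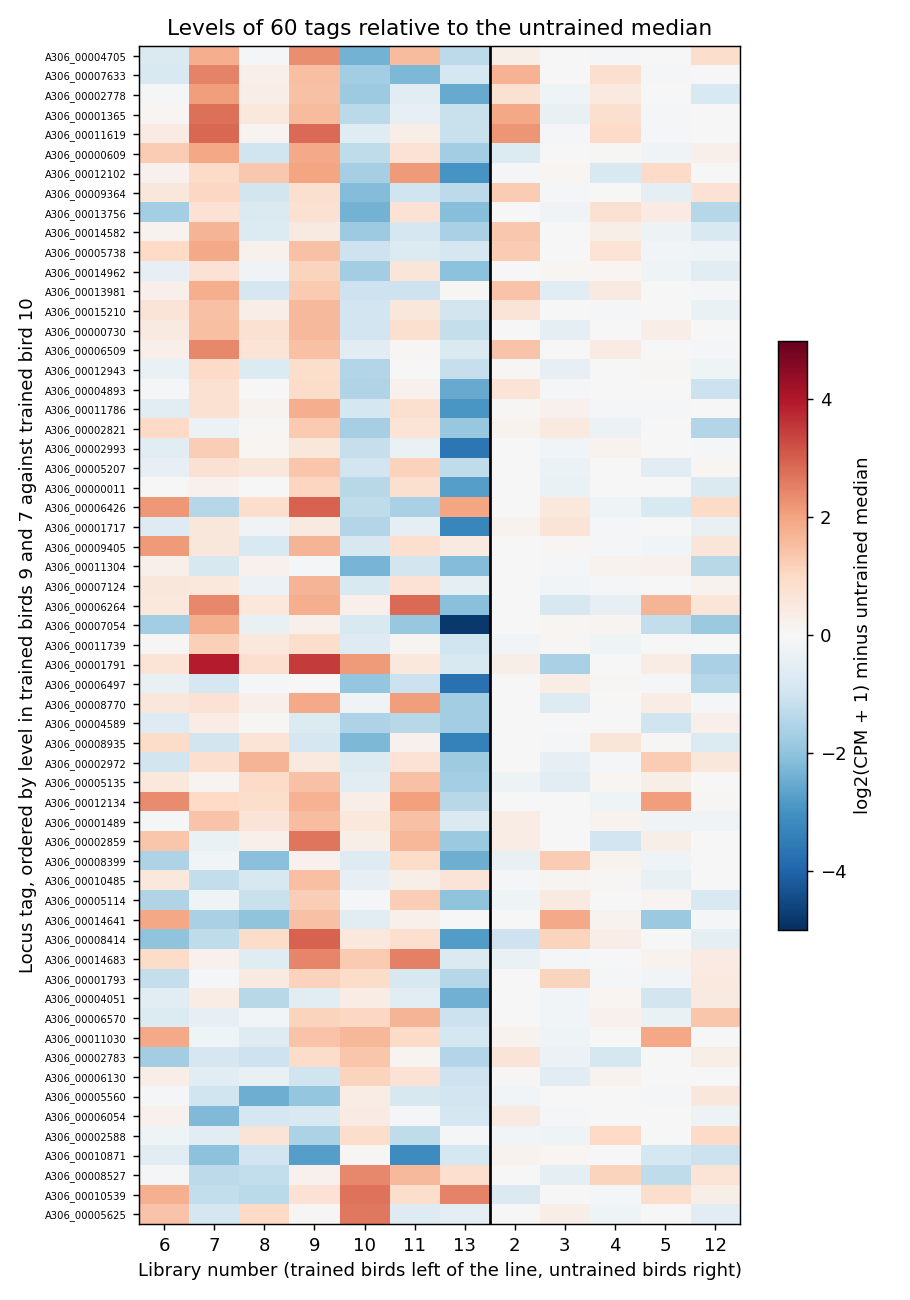
Level of each of the 60 members (rows) in the 7 trained birds (left of the line) and the 5 untrained birds (right), as log2(CPM + 1) minus the median of the untrained birds; red is higher and blue is lower. Rows are ordered by the level in trained birds 9 and 7 against bird 10. Trained bird 9 was highest in 19 rows and trained bird 13 lowest in 36, and the untrained columns hold scattered strong cells.

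Of the 420 trained values (7 birds in 60 members), 278 (66.2%) lay outside the range of the 5 untrained birds, 128 above and 150 below it. In the other eligible tags 48.3% of the trained values did. Without trained bird 13 these shares were 62.8% in members and 44.4% in the other eligible tags. Trained bird 9 was above the untrained range in 34 members (56.7%), against 21.7% of the other eligible tags, and below it in 6 (10%, against 20.5%). For trained bird 7 these were 27 above (45%, against 24.6%) and 12 below (20%, against 20.5%). Trained bird 11 was above the range in 25 (41.7%, against 25.1%) and below it in 16 (26.7%, against 25.5%). For trained bird 6 these were 21 above (35%, against 19.2%) and 14 below (23.3%, against 16.3%). Trained bird 8 lay nearest to the untrained birds, above them in 10 members (16.7%, against 22.3%) and below in 18 (30%, against 17.1%). Trained bird 10 was above the untrained range in 8 members and below it in 35, whereas in the other eligible tags it was above in 31.6% and below in 21.9%. Trained bird 13 was above in 3 (5%, against 21.3%) and below in 49 members (81.7%), against 50.5% below in the other eligible tags. In 48 members (80%) the trained birds reached beyond both ends of the untrained range, against 43% of the other eligible tags, and without bird 13 in 42 members (70%), against 25%. The choice asked for close group medians and a trained MAD well above the untrained one. It thereby favoured trained values outside the untrained range, at both ends, so these excesses are no separate result.

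**Figure D4:**
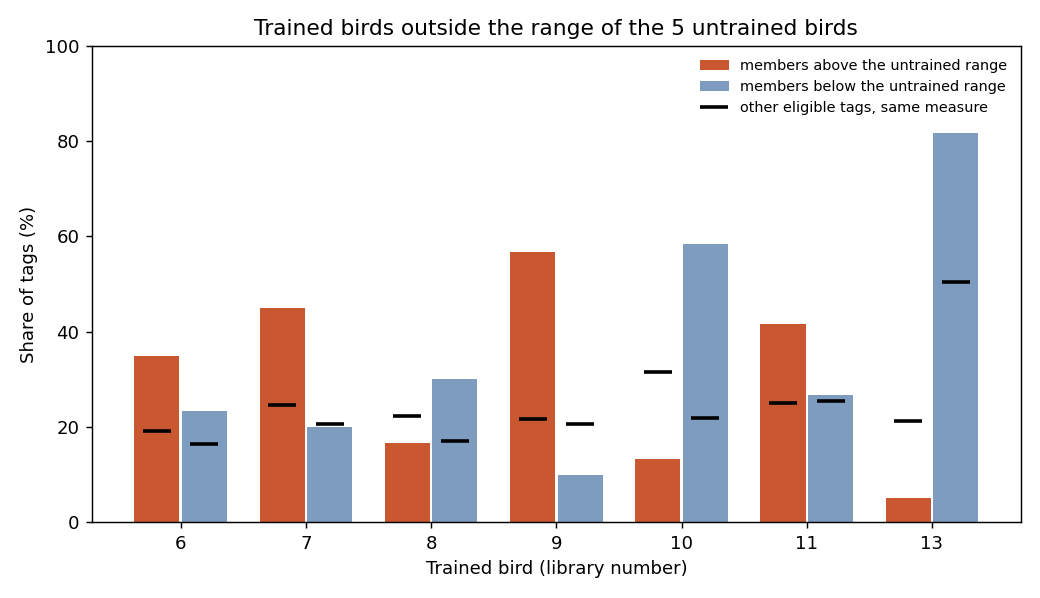
Share of tags (vertical axis, %) in which each trained bird (horizontal axis) lay above (red bars) or below (blue bars) the range of the 5 untrained birds, for the 60 members. Black marks give the same share over the 5772 other eligible tags. Trained bird 9 was above in 56.7% of the members, and trained birds 10 and 13 were below in 58.3% and 81.7%. The choice of members favoured values outside the untrained range.

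When the trained birds were ordered within each member and parted at the widest gap, bird 13 alone lay below the gap in 12 members (20%), against 36.2% of the other eligible tags, and birds 13 and 10 together in 10 (16.7%), against 2.84%. A306_00007054 is the highest ranked of the 12, at 16.6, 204, 44.4, 68.8, 33.4, 14.8 and 1.1 CPM in trained and 57.9, 61.5, 63.2, 23.9 and 15.2 CPM in untrained birds. Its untrained birds fell into 3 alike and 2 lower ones. A306_00008935, described above, leads the 10. Birds 7 and 9 lay above the gap in 5 members (8.33%, against 0.641%), and birds 7, 9 and 11 in 3 (5%, against 0.243%). Bird 7 alone lay above it in 3 (5%, against 3.19%) and bird 9 alone in 3 (5%, against 1.65%). A single bird stood apart, at either end, in 20 members (33.3%), against 67.8% of the other eligible tags, and in 40 members the gap left at least 2 birds on each side. Without bird 13, a single bird stood apart in 25 members (41.7%), against 62.5%, and bird 10 alone lay below the gap in 14 (23.3%), against 12.6%. A MAD takes little notice of 1 bird far out, so the choice itself disfavoured tags in which a single trained bird stood apart.

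The first principal component of the members over trained birds held 55.8% of their variance and set birds 9 and 7 (weights 0.47 and 0.39) against birds 13 and 10 (-0.68 and -0.36). In the other eligible tags the first component held 67.7% and was mostly bird 13 (-0.88). Without bird 13, the members' first component held 47.9%, with birds 7 and 9 at 0.48 and 0.47 against bird 10 at -0.72. The other eligible tags then gave 42% and the same 3 birds at 0.39, 0.32 and -0.85, so this axis ran through them too.

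Of the 10 members highest in trained bird 10, A306_00005625, which had the highest mean of the 60 members at 99.3 CPM, was at 173, 34.5, 129, 65.4, 401, 40.5 and 44.5 CPM in trained and at 63.5, 77.3, 55.3, 64.7 and 42.6 CPM in untrained birds. Trained bird 10 stood alone above the widest gap, birds 6 and 8 were the next highest, and trained bird 7 was lowest. Bird 7, 8 or 9 was the lowest trained bird in 6 of the 10 and bird 13 in 2. The member with the lowest mean, A306_00005207 at 5.03 CPM, had the commoner order, with 2.77, 7.66, 6.4, 12.4, 1.62, 10.4 and 1.1 CPM in trained birds, against 4.05, 3.12, 4.15, 2.36 and 4.33 CPM in untrained birds.

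A set of 9 members varied together over birds of both groups. It was picked out after the values were seen, as the members highest in trained bird 7 among trained and in untrained bird 2 among untrained birds, a combination found in 15% of the members and 6.98% of the other eligible tags. A306_00001365 was at 36.1, 233, 48.7, 102, 12.6, 25.1 and 15 CPM in trained and at 131, 25.8, 59.8, 31.3 and 33.7 CPM in untrained birds. A306_00011619 had 8.59, 52.6, 6.99, 50.3, 3.75, 8.15 and 2.35 CPM in trained and 32.8, 6, 13.1, 5.91 and 6.28 CPM in untrained birds. In both tags trained birds 7 and 9 and untrained birds 2 and 4 were the highest of their groups, and trained birds 10 and 13 the lowest trained ones.

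A306_00014582, the last member but one by rank, followed the same course with 60.6, 176, 32.7, 73.8, 14.4, 29.3 and 16.8 CPM in trained and 139, 53.4, 66.2, 45.2 and 31.4 CPM in untrained birds. A306_00013981 was at 51.9, 156, 23.9, 108, 20.5, 20.7 and 45.8 CPM in trained and at 119, 29.4, 59.9, 43.5 and 40.5 CPM in untrained birds. The others were A306_00002778, A306_00007633, A306_00005738, A306_00009364 and A306_00006509. Over the 9 tags trained bird 7 exceeded the median of the other trained birds by 4.41-fold to 13.2-fold, and untrained bird 2 exceeded the median of the other untrained birds by 1.88-fold to 5.35-fold. As a description, the Pearson correlation of each tag with the mean of the other 8 was between 0.84 and 0.98 over the 12 birds. Over the 10 birds left without trained bird 7 and untrained bird 2 it was between 0.73 and 0.96. These 10 are not independent of the choice, since all 12 birds entered the choice of members and the picking of the set. They also include trained birds 9, 10 and 13, each of which lay outside the untrained range in most members. Outside the 60, 21 of the 5772 other eligible tags had a correlation above 0.9 with the mean of the set over 12 birds, and 6 did over those 10 birds. Over 12 birds the nearest were A306_00000216 at 0.97 and A306_00002154 at 0.96.

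**Figure D5:**
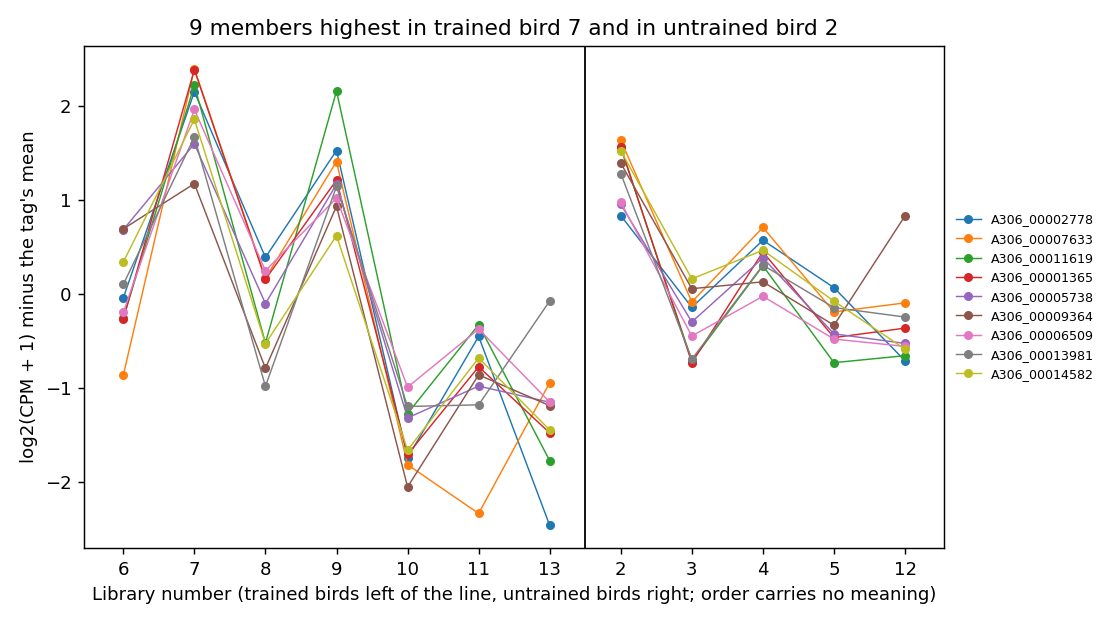
Level of the 9 members that were highest in trained bird 7 and in untrained bird 2, as log2(CPM + 1) minus each tag's own mean over 12 birds (vertical axis), by library number (horizontal axis), trained birds left of the line. Lines join the values of 1 tag as a guide to the eye. Trained bird 9 and untrained bird 4 are also high in most of the tags, and trained birds 10 and 13 are low in most, with correlations of 0.84 to 0.98 between a tag and the mean of the others.

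Among untrained birds, 16 values in 15 members lay outside the other 4 untrained birds by more than 1 log2 unit. Untrained bird 12 gave 6 of them, 5 low and 1 high (10% of members, against 0.710% of the other eligible tags). Untrained bird 2 gave 4 (6.67%, against 0.710%), untrained bird 5 gave 4 (6.67%, against 1.94%), and untrained bird 3 gave 2 (3.33%, against 0.312%). In the other eligible tags untrained bird 5 was the one most often outside, with 112 tags against 41 for each of birds 2 and 12. Untrained bird 5 stood high in 3 members. A306_00012134 was at 110.3, 42.2, 39.2, 71.8, 26.6, 87.8 and 7.27 CPM in trained and at 20.1, 20.7, 17.7, 91.7 and 21.8 CPM in untrained birds. All trained birds but 13 lay above untrained birds 2, 3, 4 and 12, and untrained bird 5 lay among the highest trained birds. A306_00011030 was at 14.4, 2.6, 1.63, 10.3, 12, 7.17 and 1.25 CPM in trained and at 3.7, 2.57, 3.16, 14.8 and 3.11 CPM in untrained birds, with untrained bird 5 above every trained bird. In A306_00006264 untrained bird 5 had 39.8 CPM, against 6.34 to 18.4 CPM in the other untrained birds, while trained birds ranged from 1.98 to 90.4 CPM. A306_00011304 was low in untrained bird 12, at 2.78 CPM against 8.36 to 10.4 CPM in the other untrained birds, and trained birds ranged from 0.951 to 10.6 CPM.

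The trained SD of a member was a median of 8.74 times the SD that counting alone gives, against 5.80 times in the other eligible tags, and the untrained SD 5.25 times, against 4.24. The members were chosen for trained spread, so the first ratio was raised by the choice. The SD exceeded 3 counting SDs in 59 of the 60 members over trained birds and in 42 over untrained birds. Few reads limit the low ends: 20 members had fewer than 20 counts in some trained bird, of which 5 had so few in a trained bird other than 13.

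The order of the tags had not been used by the choice. Among the 60 members, 2 pairs were within 10 tag numbers of each other. A306_00001791 and A306_00001793 lie 2 numbers apart. The first was at 8.7, 90.3, 9.67, 66.7, 25.2, 7.63 and 2.57 CPM in trained and at 6.24, 0.926, 4.99, 6.7 and 0.944 CPM in untrained birds, the second at 4.86, 11.7, 17.1, 28.4, 23.7, 6.65 and 3.89 CPM in trained and at 12.2, 27.5, 11.4, 11.1 and 17.3 CPM in untrained birds. Their correlation over trained birds was 0.71, and 0.57 without bird 13. Trained bird 9 was high in both, but untrained birds 3 and 12 were the lowest untrained birds in the first and the highest in the second. The other pair, A306_00002778 and A306_00002783, lay 5 numbers apart and had a correlation of 0.02 over trained birds and -0.34 without bird 13, with A306_00002783 at 1.12, 3.01, 2.48, 12.4, 17.7, 6.91 and 1.54 CPM in trained and at 10.2, 4.73, 2.88, 6.11 and 7.61 CPM in untrained birds. Between a member and the next tag in the same window of mean CPM, the median correlation over 7 trained birds was 0.40, against 0.20 for neighbouring tags that were no members. A correlation above 0.8 was found in 18.6% of the member pairs, against 12.3% of the other pairs. Without trained bird 13 the medians were 0.11 and 0.10, and 18.6% of the member pairs, against 6.85% of the other pairs, were above 0.8. The trained values that set the members' spread also enter these correlations, so the correlations are not free of the choice.

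In the comparison of group means, edgeR's quasi-likelihood test with Benjamini-Hochberg adjustment called 0 of the 60 members at an adjusted p under 0.05, where it called 6.45% of all 11047 tags tested. The choice had required close group medians, so nothing is read from this count. At an unadjusted p under 0.05 there were 3 members (5%), against 24.8% of all tags tested, namely A306_00014683, A306_00001791 and A306_00001489. DESeq2 called 13.3% of the tags to which it gave an adjusted p, and 1 member. That member was A306_00001791. In edgeR it was higher in trained birds by 2.91 log2 units ± 0.86 (SE worked back from the F statistic), with an adjusted p of 0.0584. In DESeq2 it was higher by 2.92 ± 0.72 (SE of the fit), with an adjusted p of 0.00166. In this tag 6 of the 7 trained birds lay above every untrained bird, with birds 7 and 9 the highest at 90.3 and 66.7 CPM. Trained bird 13, at 2.57 CPM, lay inside the untrained range. Untrained birds 3 and 12 were low, at 0.926 and 0.944 CPM, from 27 and 17 counts. The edgeR fold change, which rests on means, was above 0 in 44 of the 60 members, a count not made for the other tags. Its median was 0.30 log2 units in members, 0.05 in the other eligible tags and 0.04 over all tags tested. The trained median exceeded the untrained median in 33 of the 60 members and in 2968 of the 5772 other eligible tags.

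Which tags belonged to the 60 depended on the birds. Without trained birds 6, 7, 8, 9, 10, 11 or 13, the rule took 33, 19, 36, 20, 25, 32 or 30 of the 60 again, and without both trained bird 13 and untrained bird 5 it took 27. With the SD in place of the MAD it took 6. Of the 60, 4 were taken in each of the 12 settings that left out 1 library. The members describe these 12 birds, and their unevenness has no replicate in birds that the choice did not use.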

How the data were processed

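Per the labels' protocols, TruSeq RNA libraries were prepared from total RNA of the pectoral muscle, 1 per bird and 12 in all. The authors deposited raw counts per locus tag, not normalized, in 1 file per library. STAR, HTSeq, DESeq2, FastQC 0.11.5 and bcl2fastq 2.20 are named in the submitters' processing notes, without roles. For build, annotation and strand setting the sources used here give nothing, so whether overlapping genes on opposite strands were told apart is not known. Reads that overlapped more than 1 gene were counted in a summary row, at 0.174% to 0.353% of the reads in a file. The 5 summary rows of a file entered neither library sizes nor tests; reads outside genes were 18.5% to 22.2% of the reads in a file, and reads without a unique place 4.56% to 6.25%.

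CPM is the count over the library's sum. The rule for members is given in the report. They, the measures and the gene lists were chosen with earlier results of these data known; the lists of pathways and cell types could not be applied, since 0 of 15392 tags matched the table of 22830 genes. Named tags were the 8 ranked highest, the 2 on each side of the limit, the first of each set of 3 or more members with the same trained birds above the widest gap, members within 10 tag numbers of another, and those of highest and lowest mean CPM; tags named beyond these were chosen after their values were seen.

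Groups were compared with edgeR 4.0.16 (filterByExpr, TMM, robust dispersions, quasi-likelihood F test, two-sided, Benjamini-Hochberg over 11047 tags) and DESeq2 1.42.0 in R 4.3.3. The SE given for edgeR is the absolute log2 fold change over the root of F. The test and the rule were each tried on simulated data. For the rule, the window on mean CPM was lifted and the limit on group medians loosened. Counting SD is the root of 1/count on the log2 scale, and the interval of a ratio of counts is exact; both cover counting error only, since reads are not independent molecules. No 2 libraries of a group were alike within sampling noise (chi-square per degree of freedom at least 62.1 in 31 pairs). Alternatives were other scalings, pseudocounts, a measure of spread, windows, filters, DESeq2 and left-out libraries. Depth was 13611534 to 29169918 counts.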

Additional observations from a re-analysis of the deposited data

Results flagged for a closer look

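Of 84 sets of values (named tags in each group, and levels of the members by bird), 4 held a bird outside Dixon's 95% limit, and chance gives about 1 in 20 sets. The tags looked at include those named because an untrained bird lay far out, so the 4 were partly fixed by that choice. On the log2(CPM + 1) scale, A306_00012134 was at 6.53 in untrained bird 5, where the next highest untrained bird was at 4.51, and A306_00011030 was at 3.98 in untrained bird 5, where the next highest was at 2.23. A306_00011304 was at 1.92 in untrained bird 12, where the next lowest untrained bird was at 3.23, and A306_00006497 was at 2.58 in untrained bird 12, where the next lowest was at 3.92. The trained birds of the named members held no such value. The choice of members favoured this difference between the groups. A large trained MAD needs several birds far from the median, while a small untrained MAD lets 1 bird lie far out.

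Reads outside annotated genes, which enter no comparison of tags, made up 22.2% of the reads in trained bird 13, against at most 19.7% in untrained birds. Among the other trained birds they ran from 18.9% in bird 8 to 21.2% in bird 9, the bird with the highest median level of the members. The mean was 20.4% in trained and 19.1% in untrained birds. Their part in the low level of the members in trained bird 13 was not tested.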

How the results depend on the processing

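No paired analysis was possible because each bird belonged to 1 group and the labels give no matching of trained with untrained birds. The rule took 45 of the 60 members again with TMM scaling, 57 and 42 with pseudocounts of 0.5 and 5, and 42 with no window on mean CPM. It took 26 with a limit of 0.5 on the difference of group medians and 6 with the SD in place of the MAD. With 1 library left out it took 19 to 44, and 27 without untrained bird 5 and trained bird 13. The causes were not tested. The trained range was wider than the untrained one in 59 or 60 members in all 15 alternatives run. The choice of members favours this direction, as does a range over 7 birds set against one over 5, and 82.1% of the other eligible tags had it too. Trained values outside the untrained range, 278 of 420, numbered 278 with TMM scaling and 286 to 306 without 1 untrained bird (306, without bird 5, was planned; the other left-out untrained birds were added later). The share of variance on the first component was 53.4% with TMM scaling. The median correlation of members with their next tag, 0.40, was 0.11 without trained bird 13.

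In the comparison of groups, edgeR called 0 of the 60 members, DESeq2 called 1, and edgeR with 1 library left out called 0 to 1. Over all tags edgeR called 713 (6.45% of 11047 tested), DESeq2 1691 (13.3% of 12742), and edgeR with 1 library left out 111 to 1896. Without untrained bird 5 and trained bird 13 together, edgeR called 2977 of all tags and 4 of the 60 members. These 4 were A306_00001791, A306_00012134, A306_00008770 and A306_00006264. The rise from 0 to 4 among the members came with a rise from 713 to 2977 over all tags. The number of tags tested in this setting is not given here, so no share of all tags stands beside the 4. The choice had required close group medians, so nothing is read from the counts of members. Depth limits the low ends of the 20 members with fewer than 20 counts in a trained bird. Other settings added after the data were seen were TMM scaling for the component, for untrained birds outside the others (16 values, as with CPM) and for counting error (8.36 in place of 8.74), trained bird 13 left out of the component, the neighbouring tags and the counts by bird, and untrained bird 5 left out of the untrained SD and range.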
